A study of Mus musculus with 16 samples.

Results

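The nuclear genes of the mitochondrial respiratory chain were followed through 16 mouse RNA libraries from a study of Tff2, the gene of the secreted peptide trefoil factor 2. The genes were taken by name: every symbol held by both count tables that starts with Nduf, Uqcr, Sdh, Cox4, Cox5, Cox6, Cox7, Cox8 or Atp5, and Cyc1 and Cycs, without names marked as pseudogenes. The rule gave 99 of 24091 genes. Of these, 36 encode complex I, 4 complex II, 9 complex III, 20 complex IV, 15 complex V, 1 cytochrome c, and 14 are assembly or associated factors. Ndufa4 and Ndufa4l2 were counted with complex IV, where their products are now placed, and Cyc1 with complex III.

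Complex I (NADH dehydrogenase) and complex II (succinate dehydrogenase) pass electrons to ubiquinone, complex III passes them through cytochrome c to complex IV (cytochrome c oxidase), and complex V is the ATP synthase. Complexes I, III, IV and V are built from subunits of both the mitochondrial and the nuclear genome, while all subunits of complex II are nuclear. In beta cells, ATP made by this chain closes potassium channels and so couples glucose to insulin release. Several subunits of complex IV exist as alternative isoforms from separate genes, and one of each pair is usually restricted to certain tissues such as heart, skeletal muscle, lung or testis.

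All animals carried floxed Tff2 alleles. Controls were Tff2fl/fl, and knockouts (KO) were Pdx1:Cre;Tff2fl/fl, in which the Pdx1 promoter, active in early pancreatic epithelium, drives the recombinase, so that cells outside that lineage keep Tff2. Whole pancreata were taken at embryonic day 16.5 (E16.5) from 3 control and 3 KO embryos, and hand-picked islets came from 5 control and 5 KO male mice at 60 weeks. Each library had its own animal number, so p-values measure the spread between animals of a group, and in whole tissue fewer cells of a type and less RNA per cell cannot be told apart. Library totals were 14866194 to 22699934 reads in pancreata and 22595400 to 32385042 in islets. Levels are given as CPM (reads scaled to a common library size), and fold changes are log2 values from edgeR's quasi-likelihood test with Benjamini-Hochberg adjustment over all genes tested.

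The labels held for the main markers. All 16 islet endocrine markers and all 16 acinar markers had at least 1 read in every group, although Amy2a5 in control islets had a mean of only 0.0091 CPM. Islet endocrine markers summed to 182506 to 218839 CPM in control islets, against 2535 to 3252 CPM in control pancreata, and acinar markers to 614 to 1877 CPM against 105006 to 123268 CPM. Of the acinar markers 14 were lower and 1 higher in control islets. The higher one was Pnlip, at means of 173 CPM in control islets and 2.94 CPM in control pancreata. Tff2 was 28.8 ± 7.39 CPM (SD, n = 3) in control and 4.15 ± 3.95 CPM (SD, n = 3) in KO pancreata, and 2.62 ± 1.64 CPM (SD, n = 5) in control and 0.298 ± 0.237 CPM (SD, n = 5) in KO islets. One KO pancreas, KO 01, stood apart, with an acinar sum of 50459 CPM against 85345 to 94826 CPM in the other KO pancreata and a liver marker sum of 1715 CPM against 443 to 652 CPM in the other 5 pancreata. KO 18 had 117 CPM of the Y-linked gene Ddx3y, whereas the other 5 pancreata had at most 0.154 CPM.

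Control islets had lower levels of most respiratory chain genes than control fetal pancreas, in complexes I, III, IV and V, while complex II and the assembly factors were near even. Of 96 genes tested, 62 were lower and 24 higher in islets. Among all 15388 genes tested, 44.7% were lower and 41.8% higher, and 86.5% passed in either direction. A difference of at least 2-fold was found in 24 lower and 11 higher genes, where all genes gave 27.3% and 22.3%. DESeq2 called 62 lower and 24 higher, against 44.1% and 41.6% of all genes. The median log2 difference was -0.56 over the respiratory chain genes and -0.04 over all genes. Tissue, age, sex, isolation and the counting of the tables differ together here and cannot be told apart.

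Part of the genes could not be compared between the tables, because some genes with near-identical pseudogenes were close to 0 in fetal pancreas, while others, such as Atp5o with 1 copy at 135 to 145 CPM, were not. Gapdh, a glycolytic gene with 89 pseudogene copies of at least 95% identity, was at 0.975 to 1.36 CPM in control pancreata and 250.2 to 293 CPM in control islets. Atp5l, the g subunit of the ATP synthase with 9 such copies, was at 0.286, 0.303 and 0.41 CPM in control pancreata and at 66.5, 58.6, 63.6, 68.2 and 62.8 CPM in control islets. Among all genes the median log2 difference of islets against fetal pancreas was -0.09 without a copy (14086 genes), 0.21 with 1 copy (846 genes), 0.89 with 3 to 4 copies (96 genes) and 2.10 with 9 or more (45 genes). Of the respiratory chain genes tested, 23 had a copy, with a median of 0.51 and 14 higher and 8 lower (56.6% and 30.7% of all genes with a copy), and 73 had none, with a median of -0.66. The part that copies play in single values was not tested, so the counts by complex for this tissue comparison keep to genes without one. The later counts by complex between KO and control include genes with a copy.

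**Figure D1:**
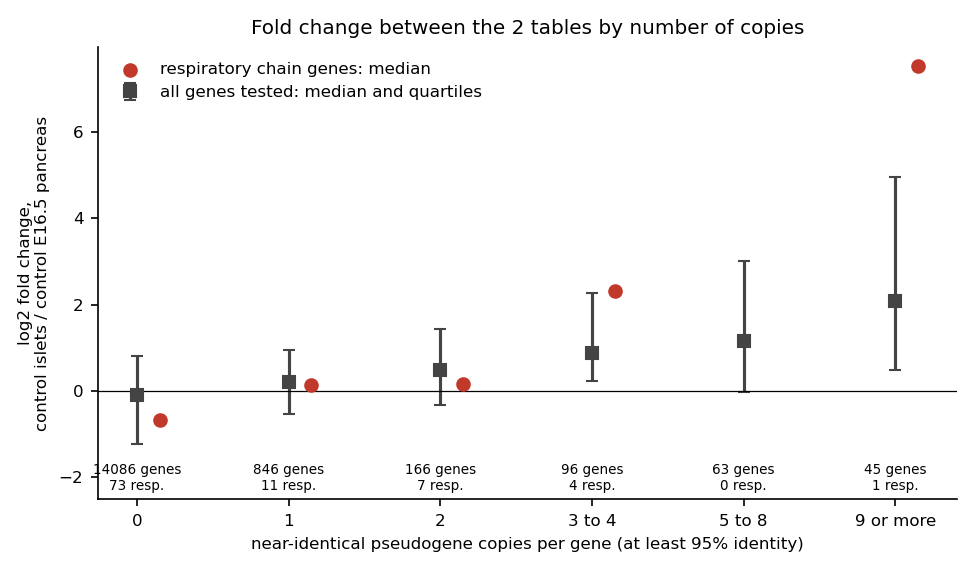
Log2 fold change of control islets against control E16.5 pancreas (vertical axis) by the number of near-identical pseudogene copies of a gene (horizontal axis). Squares with bars are the median and quartiles of all genes tested and red points are medians of the respiratory chain genes, and all-gene medians run from -0.09 without a copy to 2.10 with 9 or more.

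Of the 73 respiratory chain genes without a copy, 54 were lower and 10 higher in islets, against 46% lower and 40.4% higher among all genes without a copy. In complex I, 25 of 28 such genes were lower and 2 higher, with a median of -0.82. All 7 of complex III (median -0.76) and all 7 of complex V (median -0.95) were lower. In complex IV 10 of 13 were lower and 3 higher (Cox6a2, Cox5b and Cox8a), with a median of -1.17. The 4 genes of complex II had a median of -0.10, with 2 lower and 1 higher. The 14 assembly or associated factors had a median of -0.05, with 3 lower and 4 higher. Ndufaf2, a complex I assembly factor, had -1.12 and Atp5s, a factor associated with the synthase, 0.95. Summed over genes without a copy, the chain was at 7324, 7696 and 6851 CPM in control pancreata and at 4484 to 4904 CPM in control islets.

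**Figure D2:**
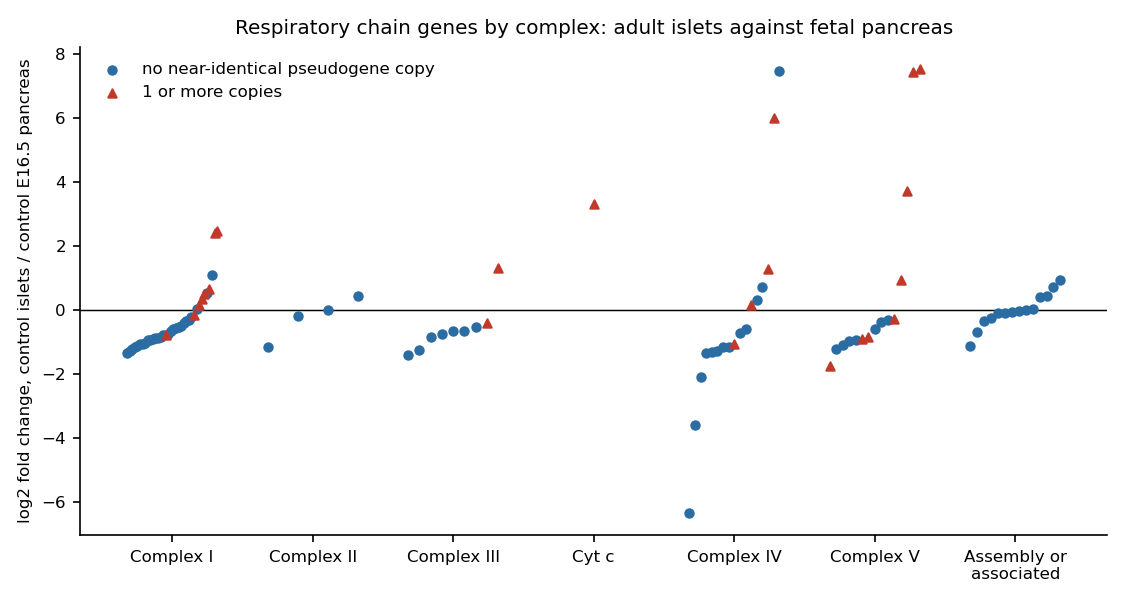
Log2 fold change of control islets against control E16.5 pancreas (vertical axis) for each respiratory chain gene tested, grouped by complex and ordered by value. Circles are genes without a near-identical pseudogene copy and triangles are genes with at least 1: most circles of complexes I, III, IV and V lie below 0, and the extreme circles of complex IV are Cox6a2 at 7.47 and Cox6b2 at -6.34.

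In complex I, Ndufa13, an accessory subunit also known as Grim19, was at 102, 96.2 and 91.2 CPM in control pancreata and at 37.5 to 41.4 CPM in control islets. The groups did not overlap, and islets were lower (-1.35, SE 0.0525, edgeR adjusted p = 8.51e-11). Ndufa3, another accessory subunit, was lower by a similar step (-1.27, SE 0.0798). Ndufa1, which lies on the X chromosome, was higher in islets (1.11, SE 0.0904) and has 8 pseudogene copies at the looser identity of 90%.

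The subunits of complex II moved apart. Sdha, the flavoprotein that oxidises succinate, was at 232, 240 and 213 CPM in control pancreata and at 307 to 330 CPM in control islets, without overlap (log2 fold change 0.43, SE 0.0554, adjusted p = 1.11e-05). Sdhb, the iron-sulfur partner of Sdha, was at 119, 128 and 113 CPM in pancreata and at 54.4 to 56.7 CPM in islets (-1.16, SE 0.048, adjusted p = 1.49e-10). The membrane anchors differed little: the value was -0.20 for Sdhc (SE 0.0574, adjusted p = 0.00511) and -0.00 for Sdhd (SE 0.0503, adjusted p = 0.963). In level per kb of gene length, Sdhb stood above Sdha in fetal pancreas, at 113 against 80.3 CPM per kb, and below it in islets, at 52 against 112 CPM per kb.

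The genes of complexes III and V without a copy were lower in islets. Cyc1, the haem-bearing cytochrome c1, was at 102, 110 and 85.1 CPM in control pancreata and 37.4 to 40.1 CPM in control islets (log2 fold change -1.41, SE 0.071, adjusted p = 1.02e-09). For Uqcrc1, a core subunit of complex III, the value was -1.25 (SE 0.0572). Atp5b, the catalytic beta subunit of the ATP synthase, had the highest level per kb of all 99 genes in both tissues, 615 CPM per kb in control pancreata and 297 CPM per kb in control islets. Its CPM were 1131, 1266 and 1050 in pancreata and 514 to 588 in islets (-1.10, SE 0.0674, adjusted p = 7.25e-09). Atp5g3, the only one of the 3 genes of the c subunit without a copy, had -1.23 (SE 0.0635).

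The extremes in both directions among genes without a copy were isoforms of cytochrome c oxidase. Cox6a2, the isoform of subunit VIa known from heart and skeletal muscle, occupies 128205435 to 128206366 on the minus strand of chromosome 7 in mm10, and has no copy. It had 7, 3 and 1 reads in the control pancreata, and 612 to 1047 reads in the control islets, where its level was 37.5, 27.8, 36.7, 31 and 29.4 CPM. The log2 fold change was 7.47 (SE 0.247, adjusted p = 1.77e-11). Cox6a1, its widely expressed partner, was at 157, 152 and 144 CPM in pancreata and at 59.7 to 69.6 CPM in islets (-1.30, SE 0.0564). Per kb, Cox6a2 made up 0.0853% ± 0.0592 (SD, n = 3) of the pair in fetal controls and 29.1% ± 1.66 (SD, n = 5) in control islets. Skeletal and cardiac muscle markers summed to 2.82 to 3.58 CPM in control islets, and 4 of the 14 (Myh6, Myh8, Tnnt3 and Tnnc2) had no read there. Itgad, which overlaps Cox6a2 on the other strand, was at a mean of 0.0346 CPM in control islets.

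The alternative isoforms Cox6b2, Cox7a1 and Ndufa4l2 were lower in islets. Cox6b2, the isoform of subunit VIb known from testis, was at 6.08, 6.3 and 6.36 CPM in control pancreata and at 0.035 to 0.128 CPM in control islets (log2 fold change -6.34, SE 0.256, adjusted p = 1.22e-10). It gave 398 reads in the 3 control pancreata and 9 in the 5 control islet libraries. Cox7a1, the heart and muscle isoform of subunit VIIa, was at 3.79, 4.49 and 2.87 CPM in pancreata and at 0.113 to 0.512 CPM in islets (-3.60, SE 0.298, adjusted p = 1.46e-07). Its share of the pair with Cox7a2, per kb, was 7.05% ± 1.1 (SD, n = 3) in fetal controls and 1.04% ± 0.473 (SD, n = 5) in control islets. Ndufa4l2, a relative of Ndufa4 known as a hypoxia-responsive gene, was at 14.7 to 20.01 CPM in pancreata and at 3.5 to 4.95 CPM in islets (-2.11, SE 0.132), and overlaps Shmt2 on the other strand, at means of 95.2 and 22.7 CPM. Cox4i2, the lung-type isoform of subunit IV, was low in both, 2.17 to 2.98 CPM against 1.24 to 2.15 CPM (-0.59, SE 0.209, adjusted p = 0.0184), while its share of the pair with Cox4i1, per kb, was 0.95% ± 0.14 (SD, n = 3) in fetal controls and 1.63% ± 0.337 (SD, n = 5) in control islets. Cox4i2 overlaps Bcl2l1 on the other strand, at means of 39.4 CPM in control pancreata and 47.5 CPM in control islets. The part of that overlap in the Cox4i2 reads was not tested. Cox8b and Cox7b2 had at most 5 reads in any library and Cox8c had none in all 16.

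**Figure D3:**
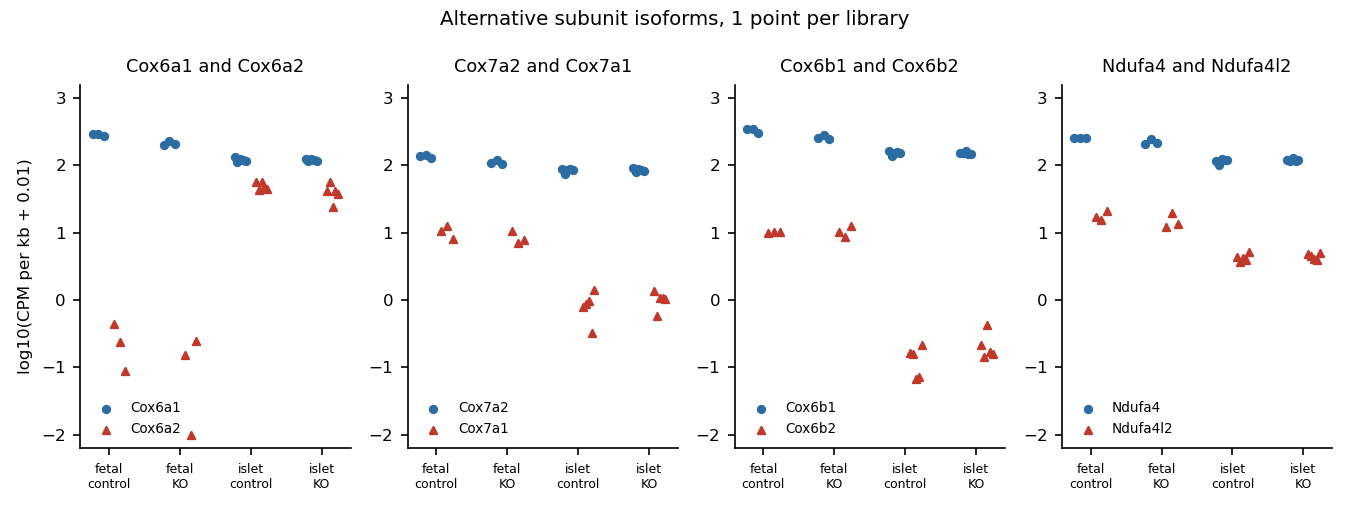
Levels of 4 pairs of alternative subunits in each library as log10(CPM per kb + 0.01), with 1 point per library and the 4 groups on the horizontal axis. Blue circles are the widely expressed gene and red triangles the alternative one: Cox6a2 is near the bottom of the scale in fetal pancreas and just below Cox6a1 in islets, while Cox7a1, Cox6b2 and Ndufa4l2 are lower in islets.

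Neighbouring mitochondrial genes were counted in the same fit, with or without a copy. Among all genes tested in that fit, 44.7% were lower and 41.8% higher. Of 76 genes of the mitochondrial ribosome, 59 were lower and 9 higher in islets, with a median of -0.62. The tricarboxylic acid cycle was mixed, with 8 of 14 lower and 4 higher. Its extremes were Idh2, the mitochondrial isocitrate dehydrogenase using NADP, at -1.79 (SE 0.0654), and Ogdh, of the oxoglutarate dehydrogenase, at 0.95 (SE 0.058). Of 37 assembly genes outside the naming rule, 16 were lower and 12 higher. Of 16 regulators of respiratory genes, 10 were lower and 5 higher, among them Ppara, a nuclear receptor of fatty acid oxidation, at -2.44 (SE 0.122), and Esrrg, an orphan nuclear receptor, at 1.31 (SE 0.111). Proliferation markers were lower in islets in 12 of 12 genes, and summed to 1535 to 1872 CPM in control pancreata and 69.1 to 93 CPM in control islets. Their part in the difference was not tested.

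In the E16.5 pancreas, part of the respiratory chain transcripts were lower in KO than in control by small amounts relative to all genes. Of 93 genes tested, 20 fell and 0 rose by edgeR's quasi-likelihood test with adjusted p under 0.05, where 2.68% of all 14914 genes tested fell, 3.75% rose and 6.43% passed either way. At an unadjusted p under 0.05 in edgeR's test there were 56 in either direction, beside 3791 of all 14914 genes. DESeq2 called 28 lower and 0 higher, against 4.24% and 6.16% of all genes. The median log2 fold change was -0.22, against -0.00 for all genes. By complex, 11 of 36 fell in complex I, 1 of 4 in complex II, 0 of 9 in complex III, 4 of 16 in complex IV, 4 of 13 in complex V and 0 of 14 among assembly or associated factors. The complexes had medians of -0.25 (I), -0.17 (II), -0.22 (III), -0.23 (IV) and -0.26 (V), and the assembly factors of -0.08.

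The summed level of all 99 genes was 8548, 8998 and 8042 CPM in the controls and 7275, 7324 and 7078 CPM in the KO pancreata, so the groups did not overlap. Under the same scaling, every KO library lay below every control library in 67 of the 93 genes, as in 20.6% of all genes tested. Every KO library lay above in 0 of them, and in 12% of all genes.

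**Figure D4:**
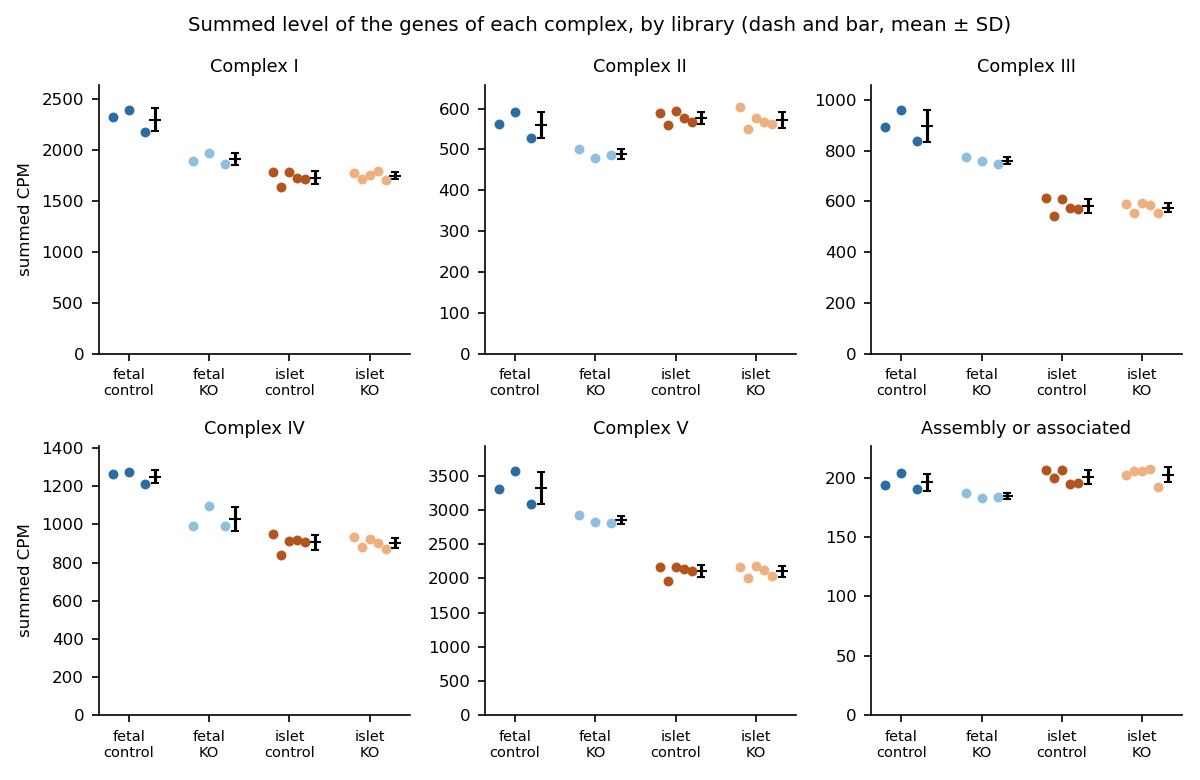
Summed CPM (vertical axes, from 0) of the genes of each complex and of the assembly or associated factors in each of the 16 libraries, 1 point per library, with the mean ± SD as a dash and bar. In complexes I to V, and in the assembly or associated factors, all 3 fetal KO libraries lie below all 3 fetal controls. Islet KO and control libraries overlap. The scaling is TMM over all 16 libraries.

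The lowest adjusted p belonged to Cox6a1, at 157, 152 and 144 CPM in controls and at 107, 120 and 108 CPM in KO pancreata. Its log2 fold change was -0.40 (SE 0.0668, adjusted p = 0.0236). Cox5b, a zinc-binding subunit of complex IV, was at 30.2, 29.7 and 29.3 CPM in controls and 21.2, 23.9 and 21.8 CPM in KO pancreata (-0.38, SE 0.0731, adjusted p = 0.0298). Cox4i1, the main isoform of subunit IV, was at 259.8, 254 and 259.8 CPM against 189.9, 215 and 198 CPM (-0.32, SE 0.0658, adjusted p = 0.0337). In each of these 3 the KO 18 library was the highest of the KO group and still below every control.

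In complex I the largest falls among called genes were those of Ndufa13 and Ndufs7, a core iron-sulfur subunit. Ndufa13 was at 102, 96.2 and 91.2 CPM in controls and at 65.2, 78.2 and 71.1 CPM in KO pancreata (-0.40, SE 0.0792, adjusted p = 0.0322). Ndufs7 was at 35.4, 33.1 and 30.1 CPM against 23.9, 26.4 and 23.4 CPM (-0.39, SE 0.0859, adjusted p = 0.0417). The other 9 were Ndufa2, Ndufa8, Ndufb5, Ndufb7, Ndufb10, Ndufb11, Ndufc1, Ndufs8 and Ndufv1, with log2 fold changes from -0.39 to -0.26. Ndufs8 is a core iron-sulfur subunit and Ndufv1 binds NADH. In complex V, Atp5o, the subunit that links head and stalk of the synthase, was at 142, 145 and 135 CPM in controls and at 113, 111 and 108 CPM in KO pancreata (-0.31, SE 0.0551, adjusted p = 0.0269), and it has 1 pseudogene copy. Atp5j2, Atp5d and Atp5j fell by 0.36, 0.32 and 0.26 on the log2 scale.

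In complex II, Sdhb was at 119, 128 and 113 CPM in controls and 94.8, 102 and 95.3 CPM in KO pancreata (-0.27, SE 0.064, adjusted p = 0.0496), while Sdha did not pass (-0.12, SE 0.0699, adjusted p = 0.338). No gene of complex III passed; their values ran from -0.33 to -0.14, and Uqcrc1 had the lowest adjusted p, 0.0565. Cycs, the electron carrier, had -0.17 (SE 0.2, adjusted p = 0.637), from 2.72 to 4.51 CPM in all 6 pancreata, and carries 3 pseudogene copies. The alternative isoforms did not pass either: Cox7a1 had -0.24 (SE 0.23), Cox6b2 had 0.07 (SE 0.151) and Cox4i2 had -0.57 (SE 0.222, adjusted p = 0.159), the last from 2.17 to 2.98 CPM in controls and 1.41 to 1.95 CPM in KO pancreata.

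**Figure D5:**
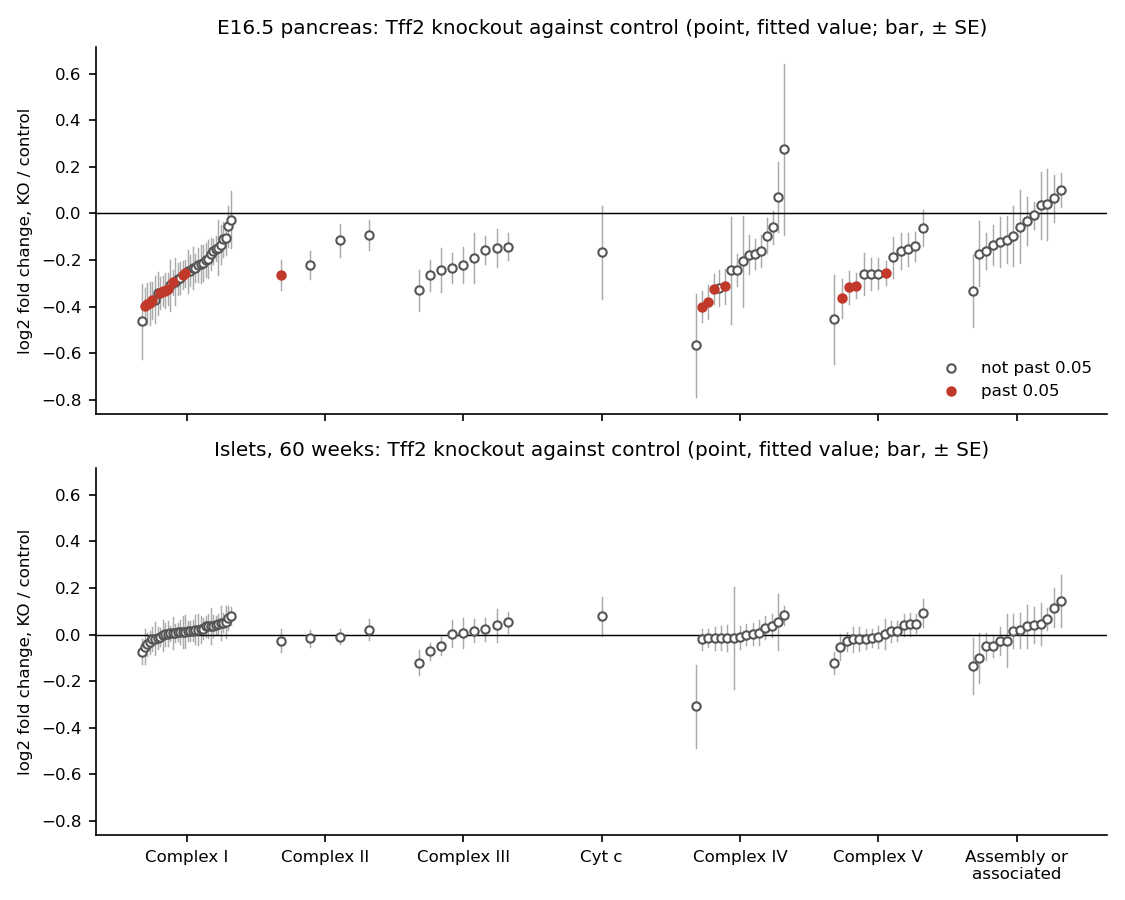
Log2 fold change of KO against control (vertical axes) for each respiratory chain gene tested at E16.5 (top) and in islets (bottom), grouped by complex, with bars of 1 SE. Red points passed an adjusted p of 0.05: 20 at E16.5, all below 0, and 0 in islets, where most points lie close to 0; with scaling to pan-epithelial genes the E16.5 median is 0.16, beside 0.38 for all genes.

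Markers of several cell types moved alongside, in a fit where 2.68% of all genes tested fell and 3.75% rose. A list of 20 pan-epithelial genes had a median of -0.40, with 12 falling, led by the claudins Cldn3 (-0.64, SE 0.0769) and Cldn6 (-0.49, SE 0.0678). It summed to 3040, 3228 and 2770 CPM in controls and 2244, 2169 and 2288 CPM in KO pancreata. Of 16 islet endocrine markers 12 fell, with sums of 2535 to 3252 CPM in controls and 1059 to 1683 CPM in KO pancreata. Of 10 Schwann cell and neuron markers 8 rose, with sums of 61.2 to 67.4 CPM and 121 to 377 CPM. Acinar markers summed to 105006 to 123268 CPM in controls and 50459 to 94826 CPM in KO pancreata, with 1 of 16 falling. Endothelial markers summed to 878 to 1126 CPM and 660.2 to 862 CPM, with 2 of 12 falling, and both sums did not overlap between the groups. Of 12 smooth muscle and pericyte markers 4 rose. Scaling the fit to the pan-epithelial genes shifted all genes upward alike, to an all-gene median of 0.38 with 9148 of 14914 genes called. The respiratory chain genes then had a median of 0.16, with 0 of 93 lower and 26 higher. A common shift leaves the distance between their median and that of all genes nearly unchanged, so this scaling cannot test that distance. The part of cell make-up in the falls was not tested.

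The calls also depended on single libraries. Leaving out any 1 of the 3 controls left 0 of the 20 calls, and all genes called numbered 0, 4 and 0 without controls 02, 08 and 13, against 959 with them. Without KO 01, 8 respiratory chain genes fell, with 1035 of all genes called in either direction. Without KO 18 there were 28 (857 of all genes), and without KO 19 there was 1 (796 of all genes). The median stayed between -0.25 and -0.18. With library totals as scaling 3 fell (958 of all genes called), and with all 16 libraries in 1 fit 46 fell (2070 of all genes called).

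Related mitochondrial lists gave the following counts at E16.5, where 2.68% of all genes tested fell and 3.75% rose. In the mitochondrial ribosome 5 of 75 genes fell and 0 rose (median -0.14), among them Mrps34 (-0.41, SE 0.0697) and Mrps12 (-0.41, SE 0.0801), both of the small subunit. In the tricarboxylic acid cycle 1 of 14 fell, Suclg1 of succinyl-CoA ligase (-0.29, SE 0.068). Among assembly genes outside the naming rule 2 of 37 fell, Cox17, a copper chaperone of complex IV (-0.44, SE 0.0861), and Coa3, another complex IV assembly factor (-0.36, SE 0.068). Of 20 glycolytic genes 2 fell, among them Aldoc, an aldolase (-0.39, SE 0.0917). Of the regulators 1 of 16 fell, Ppard (-0.30, SE 0.0645), and of 8 carriers 1, Ucp2, an inner membrane carrier (-0.33, SE 0.073). No gene of coenzyme Q synthesis or pyruvate entry passed. The differences in frequency between lists were not tested.

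Promoters are shown for the genes that fell at E16.5 and hold a match to the core motif of NRF1, a transcription factor long known to bind promoters of respiratory genes. Of the 99 genes, 82 matched an entry of the RefSeq promoter table (GRCm38.p6), which spans 250 bases before to 50 bases after a start site. The core GCATGCGC, sought on both strands, occurred in 13 of these 82 (15.9%) and in 2.71% of all 32817 promoters. For the 82, a single entry nearest the start of the gene was used, whereas the 32817 hold every distinct entry. The ETS core CCGGAAG, bound by factors such as GABP, occurred in 20 of 82 (24.4%) against 8.86% of all, and the YY1 core AAGATGGC in 11 of 82 (13.4%) against 2.74%. The median GC content was 58.5% in the promoters of respiratory chain genes and 52.7% in all. Of the 20 genes that fell, 18 had a promoter entry. The NRF1 core was in 3 of these 18 (16.7%: Cox6a1, Ndufa8 and Sdhb), near the 15.9% of all 82. The ETS core was in 5 (27.8%), beside 24.4% of all 82. These counts include matches in the 50 bases after the start site, which are not shown. The 250 bases before the start site are given 5′ to 3′ on the strand of the gene, with both cores in capitals, for Cox6a1 (chr5:115348959-115349208, minus strand), Ndufa8 (chr2:36049339-36049588, minus strand) and Sdhb (chr4:140961021-140961270, plus strand). Cox6b1 (chr7:30626115-30626364, minus strand) fell, and Cox6b2 (chr7:4753095-4753344, minus strand), its alternative isoform, is set beside it.
Cox6a1: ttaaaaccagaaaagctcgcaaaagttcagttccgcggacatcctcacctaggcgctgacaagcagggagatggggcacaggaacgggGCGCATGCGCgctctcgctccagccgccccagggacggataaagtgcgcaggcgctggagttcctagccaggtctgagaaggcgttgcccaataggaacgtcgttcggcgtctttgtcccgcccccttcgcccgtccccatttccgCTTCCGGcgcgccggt
Ndufa8: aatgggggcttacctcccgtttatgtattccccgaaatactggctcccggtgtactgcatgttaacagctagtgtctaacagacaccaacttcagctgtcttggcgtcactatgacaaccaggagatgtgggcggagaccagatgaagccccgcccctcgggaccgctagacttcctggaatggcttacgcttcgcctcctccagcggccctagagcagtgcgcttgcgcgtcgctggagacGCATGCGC
Sdhb: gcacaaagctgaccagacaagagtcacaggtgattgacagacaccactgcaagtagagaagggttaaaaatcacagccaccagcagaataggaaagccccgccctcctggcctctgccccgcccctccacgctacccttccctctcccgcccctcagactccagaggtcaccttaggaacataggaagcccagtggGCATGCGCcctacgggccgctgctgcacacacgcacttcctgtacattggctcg
Cox6b1: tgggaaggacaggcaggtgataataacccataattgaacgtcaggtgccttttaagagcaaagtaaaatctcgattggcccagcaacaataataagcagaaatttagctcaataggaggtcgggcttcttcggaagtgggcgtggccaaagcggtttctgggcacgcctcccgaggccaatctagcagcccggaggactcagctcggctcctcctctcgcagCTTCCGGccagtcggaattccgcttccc
Cox6b2: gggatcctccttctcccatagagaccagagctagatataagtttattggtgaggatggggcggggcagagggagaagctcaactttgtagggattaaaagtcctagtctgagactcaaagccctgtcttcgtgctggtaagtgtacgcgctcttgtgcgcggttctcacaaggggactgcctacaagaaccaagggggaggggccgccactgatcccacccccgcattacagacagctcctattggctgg
Cox6a1 held both matches to the NRF1 core in 1 overlapping stretch and an ETS core near the start site. Cox6b1 held an ETS core and no NRF1 core, and the window of Cox6b2 held neither. A match describes the letters of the reference and was not tested for binding.

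Respiratory chain genes were not called between KO and control islets. By edgeR, 0 of 94 genes passed, and 0.155% of all 14219 genes did (0.113% higher, 0.0422% lower). DESeq2 called 0 as well, with 0.457% of all genes higher and 0.331% lower, and limma-voom called 0. In edgeR 2 had an unadjusted p under 0.05, beside 1021 of all 14219 genes. They were Atp5l (-0.12, SE 0.0469) and Uqcr10, a small subunit of complex III (-0.12, SE 0.0527). The median log2 fold change was 0.01, and in 85 of 94 genes the 95% interval of the difference lay within 0.25 on either side of 0. In 0 genes did the KO and control islets fail to overlap, beside 0.774% of all genes with every KO library below and 0.788% with every KO library above.

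The most abundant genes show how narrow these intervals were. Atp5b was at 514, 543, 562, 567 and 588 CPM in control islets and 521, 529, 552, 570.1 and 582 CPM in KO islets, with an interval from -0.11 to 0.09. Cox4i1 was even, at 0.00 (interval -0.10 to 0.10), and Sdha at -0.02 (interval -0.10 to 0.07). Uqcrc2, a core subunit of complex III, was close to 0 as well (-0.07, interval -0.15 to 0.01).

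Cox6a2 varied between islet libraries. It was at 37.5, 27.8, 36.7, 31 and 29.4 CPM in control islets and at 27.2, 36.6, 15.5, 27.5 and 24.7 CPM in KO islets, with KO 803 the lowest of all 10. Its log2 fold change was -0.31 (SE 0.176, adjusted p = 0.773), and the interval from -0.69 to 0.07 is the only one of the 94 not within 0.5 of 0 on either side. Its share of the pair with Cox6a1 was 24.8% ± 5.93 (SD, n = 5) in KO islets, from 16.1% to 32.8%.

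The effect of the deletion differed between the tissues for part of the genes. In a fit over all 16 libraries, the signed log2 fold change of KO against control was compared between the tissues. It was higher in islets than at E16.5 in 29 of 96 genes and lower in 0 by edgeR's quasi-likelihood test. Among all 15823 genes tested, 3.94% were higher, 3.25% lower and 7.19% either way. The median over respiratory chain genes was 0.01 in islets and -0.22 at E16.5, so a higher value is not a larger change. DESeq2 called 30 higher and 0 lower, against 5.2% and 4.64% of all genes. The 29 called by edgeR were 15 of complex I, 1 of complex II, 1 of complex III, 6 of complex IV and 6 of complex V. Ndufa13 had the lowest adjusted p among the genes named here, with an effect of -0.40 at E16.5 and 0.05 in islets and a difference of 0.46 (SE 0.0809, adjusted p = 0.00343). Cox6a1 had -0.40 and -0.00, a difference of 0.42 (SE 0.0788, adjusted p = 0.00585). The difference ran in the same direction as that of the pan-epithelial genes, of which 12 of 20 passed, also all higher in islets. With library totals as scaling the count was 15, and leaving out 1 library gave 11 to 35, with 11 without control 02, 16 without control 08 and 14 without KO 01.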

How the data were processed

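Polyadenylated RNA of 16 libraries was sequenced. The authors deposited raw read counts per gene in 1 table for each tissue. The submitters' processing notes list HTSeq 0.11.1, STAR 2.6.0, Trimmomatic, the mm10 build and edgeR. Neither strand use nor the annotation version is stated in the labels. Levels are CPM after TMM scaling over all 16 libraries. Tests used edgeR 4.0.16 (quasi-likelihood F test, TMM, default filter on low counts, adjusted p under 0.05) in R 4.3.3, on control islets against control pancreata, KO against control within each tissue, and the difference of these effects over all 16 libraries. DESeq2 1.42.0, limma-voom (limma 3.58.1), other scalings and filters, and leaving out each library were alternatives. The fits were also run on simulated counts in which single genes were changed independently. These held no change in cell make-up and no outlying library, so they cannot test the E16.5 calls on those points. Pseudogene copies were found with blastn 2.17.0 among GENCODE M21 transcripts (at least 100 aligned bases, 50% of the pseudogene, 95% identity). The members and lists were chosen with earlier results of these data known. Named members were the subunits with alternative isoforms, Sdha to Sdhd, Cyc1 and Cycs, and, per comparison and complex, up to 2 members per direction with the largest called fold at a mean of at least 1 CPM, or the most abundant where none passed; of other lists, up to 2 per direction with the lowest p. Others are named to complete a count or were chosen after their values were seen. No library was left out of the main fits, and proteins were not compared. Some named genes are not reported here.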

Additional observations from a re-analysis of the deposited data

Results flagged for a closer look

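Among 116 groups of 5 islet libraries, 9 (7.76%) had 1 library far from the other 4 by Dixon's test at 95%, a test that chance alone trips in a small share of groups, about 5%. In KO 055, Atp5o was at 51.1 CPM against 43.8 to 45.9 CPM in the other KO islets, and Sdha at 334 CPM against 305 to 313 CPM. In KO 803, Cox6b2 was at 0.258 CPM against 0.0828 to 0.124 CPM, and its share of the pair with Cox6b1 was 0.258% against 0.0897% to 0.131%. Ndufa4 was at 50.1 CPM in control 826 against 57.3 to 59.7 CPM. Cox8b had 1 read each in control 857 (0.0375 CPM, 0.067% of the pair with Cox8a) and KO 803 (0.0322 CPM, 0.0522%) and 0 in the other islets.

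For 14 of 45 named genes the KO effect differed between the tissues in edgeR's interaction test, beside 7.19% of all genes tested in either direction. In each, the signed log2 fold change was higher in islets and was negative at E16.5. The named genes were partly chosen by the size of these effects, so nothing is read from the count of 14. On the log2 scale the differences (islet effect minus E16.5 effect) were 0.46 for Ndufa13, 0.47 for Ndufs7 and 0.51 for Ndufs5 in complex I. They were 0.30 for Sdhb and 0.33 for Uqcrc1. In complex IV they were 0.34 for Cox4i1, 0.38 for Cox5b, 0.42 for Cox6a1, 0.31 for Cox6b1, 0.29 for Cox7a2 and 0.32 for Cox8a. In complex V they were 0.31 for Atp5d, 0.35 for Atp5j2 and 0.42 for Atp5o. The adjusted p ran from 0.00343 for Ndufa13 to 0.0481 for Cox7a2.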

How the results depend on the processing

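Under other settings, 177 summary values stayed within their limits and 23 moved. In the tissue comparison the median was -0.74 with library totals (where the median of all genes was -0.23), -0.67 with totals without hormone and acinar enzyme genes, -0.66 without genes that have a copy at 95% identity and -0.70 at 90%. These last settings, chosen after seeing the data, left 10 of 73 and 9 of 59 genes higher. Of the 23 genes left out at 95% identity, 14 were higher and 8 lower. A minimum fold of 1.5 left 14 higher and 40 lower of 96, beside 9170 of all 15388 genes called in either direction. Leaving out 1 library gave 23 to 25 higher, 61 to 62 lower and a median of -0.58 to -0.50. Sdhaf2 turned to -0.19 and -0.11 with the 2 scalings by totals. At E16.5 the count of falls was 3 with library totals, 46 with all 16 libraries, 13 without copies at 90% identity and 0 to 28 when 1 library was left out, with a median of -0.25 to -0.18. Scaling to pan-epithelial genes shifted all genes alike, to an all-gene median of 0.38 with 9148 of 14914 genes called, and gave 26 respiratory chain genes higher, 0 lower and a median of 0.16. By that common shift, and with no bearing on single genes, the log2 fold change became 0.0583 for Cox4i1, 0.0733 for Cox6b1, 0.33 for Cox7b, 0.23 for Atp5g3, 0.27 for Sdha, 0.12 for Sdhb, 0.29 for Sdhd, 0.0732 for Atp5o, 0.23 for Uqcrb, 0.0231 for Atp5j2, 0.0681 for Atp5d, 0.37 for Sdhaf2, 0.00224 for Cox5b and 0.23 for Uqcrc2. In islets no setting gave a call, and the median ran from -0.01 to 0.03 when 1 library was left out. The interaction count was 15 with library totals and 11 to 35 when 1 library was left out. The cause of the other moves was not tested. No paired analysis was possible because the groups share no animal number. Isoforms with few reads, such as Cox8b, were too shallow to compare.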
